A study of Homo sapiens with 16 samples.

Results

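The first hours of actin depolymerisation were read from 6 of the 16 libraries of a time course: 3 libraries labelled LatB 3 h and 3 labelled control 0 h, taken by their titles. LatB is latrunculin B, which binds actin monomers and stops them from joining filaments. The cells were pancreatic progenitors on day 19 of differentiation from SA121, a single human embryonic stem cell line that carries an NGN3-GFP reporter of the endocrine gene NEUROG3. All groups share that line, genotype and day. The LatB 3 h cells received 0.5 µM of the drug for 3 h. The control 0 h libraries carry a DMSO tag in the sample labels, whereas the treatment text gives DMSO to the 24 h controls, so whether the 0 h cells saw the vehicle is not settled. No vehicle library of 3 h was used here, and 3 h of culture or of DMSO cannot be told apart from 3 h of drug. The other libraries are LatB at 6 h (n = 3), 12 h (n = 2) and 24 h (n = 3) and control 24 h (n = 2), which received DMSO.

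Actin monomers and filaments feed into transcription. Monomeric actin holds the MRTF coactivators away from the transcription factor SRF, whose targets include the actins and many actin-binding proteins, and filament tension keeps the coactivators YAP and TAZ in the nucleus, where they act through TEAD factors on genes such as CCN1 and CCN2. In the developing pancreas, YAP activity holds progenitors back from the endocrine fate that NEUROG3 starts.

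The 6 libraries held 23831223 to 33515398 estimated reads, and 15289 to 15808 genes per library had 10 reads or more. The mitochondrial share ran from 3.95% to 5.39% at 0 h and from 3.91% to 5.32% at 3 h. Within a group, no pair of libraries agreed within counting noise, so each library counted as 1 sample. Separate cultures are not stated for these samples, and p-values then measure only the spread between libraries. The progenitor label was checked against 7 markers, whose summed level was 1739 to 1971 TPM at 0 h and 1807 to 1886 TPM at 3 h, with ONECUT1, the lowest of GP2, PDX1, SOX9, NKX6-1 and ONECUT1, at 28.2 to 38.2 TPM and PTF1A at 0.18 to 0.927 TPM. TPM is a level per transcript length. Insulin and glucagon were at most 1.12 TPM. Hepatocyte-type genes were abundant, at a summed 1841 to 2190 TPM at 0 h and 2390 to 2720 TPM at 3 h, though albumin was at most 2.32 TPM. Mesenchymal markers summed to 283.8 to 308.1 TPM at 0 h and 136.6 to 205.7 TPM at 3 h, most of it from VIM, and 0 of 7 were called by edgeR or DESeq2, with 1 at an unadjusted p under 0.05. Endothelial markers summed to at most 3.01 TPM in any of the 6 libraries.

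Within 3 h the transcriptome had moved broadly but mostly by small amounts. Of 16705 genes tested, 5271 were called with the quasi-likelihood test of edgeR at an adjusted p under 0.05, or 31.6%, with 2810 higher (16.8%) and 2461 lower (14.7%). Of the calls, 63.6% were under 0.5 in size on the log2 scale. A log2 change of at least 1 was reached by 614 called genes (3.68%), of which 302 rose (1.81%) and 312 fell (1.87%). Among these, 62 rose by at least 2 on the log2 scale and 50 fell by at least 2. The groups did not overlap for 8059 of all genes tested, or 48.2%, and for 5178 of the 5271 called. For a called gene, here and below, groups without overlap therefore add little to the call. In bulk RNA, fewer cells of a type and less RNA per cell cannot be told apart. The split between higher and lower depended on scaling: 53.3% of the calls were higher with TMM scaling between libraries, 36.1% without any scaling, and 38.0% to 39.4% on TPM. Among the calls of at least 1 on the log2 scale, the higher share was 49.2% with TMM, 39.0% without scaling, 39.3% on log2(TPM + 0.1), 49.4% on log2(TPM + 1) and 51.6% on log2(TPM + 1) with no filter. Without scaling the median over all genes moved by -0.08 on the log2 scale.

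**Figure D1:**
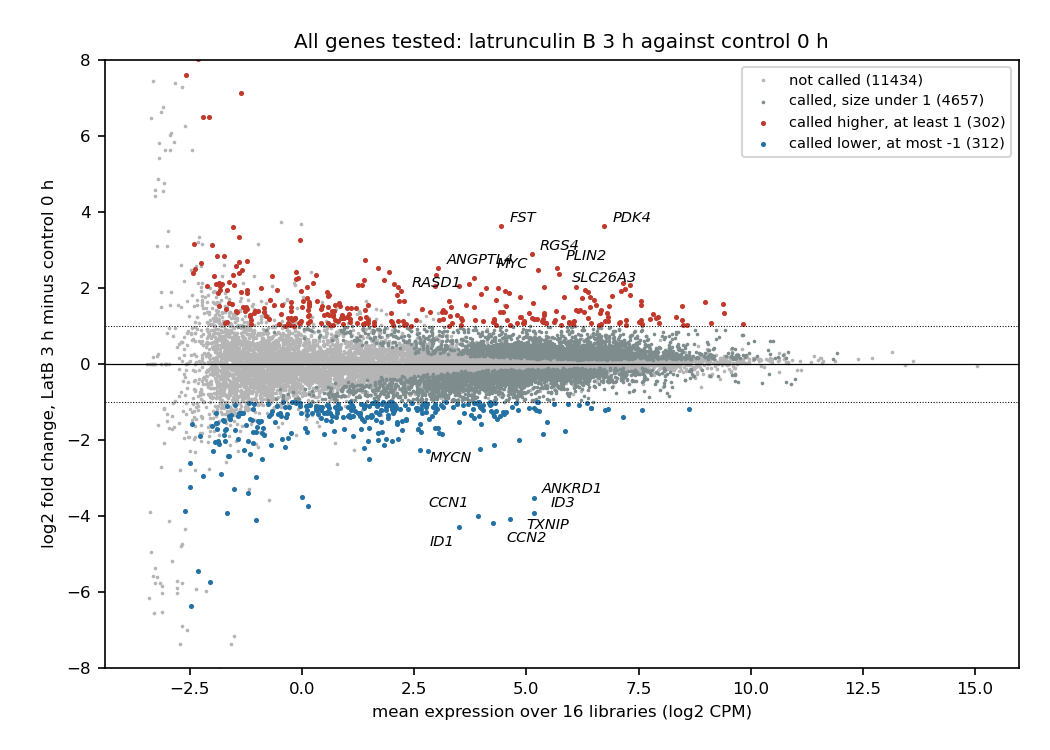
Each point is a gene tested, with its mean expression in log2 CPM over 16 libraries on the x axis and its log2 fold change at LatB 3 h against control 0 h on the y axis, where dotted lines mark 1 and -1. Called genes under 1 in size form a band around 0, with the 302 large rises and 312 large falls outside it, and 13 genes lie beyond the y axis.

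The 15 largest rises and 15 largest falls were chosen among called genes whose groups did not overlap. For these genes, groups that lie apart are a condition of the choice, not a result. The genes that rose most among well expressed genes were PDK4 and FST. PDK4 (GRCh38 chromosome 7, 95583499 to 95596516, minus strand) encodes a kinase that shuts off the pyruvate dehydrogenase complex. It stood at 34.2, 30.2 and 33.2 CPM at 0 h and 381, 346 and 474 CPM at 3 h, where CPM is the count scaled for library size. The rise was 12.3-fold (log2 fold change 3.62, SE 0.34, edgeR adjusted p 4.24e-06), and the lowest treated library lay well above the highest control. FST (GRCh38 chromosome 5, 53480626 to 53487134, plus strand) encodes follistatin, a secreted protein that traps activins and some BMPs, and it stood at 6.34, 5.86 and 5.98 CPM at 0 h and 51.1, 60.3 and 112 CPM at 3 h. All 3 treated libraries were above every control, although replicate 3 was well above the other two (log2 fold change 3.62, SE 0.32, edgeR adjusted p 2.93e-06).

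Behind them came RGS4, PLIN2, ANGPTL4 and MYC. RGS4 shortens signalling through G protein-coupled receptors, and it was at 9.05, 8.78 and 10.1 CPM at 0 h and 64.5, 72.5 and 68.9 CPM at 3 h (log2 fold change 2.88, SE 0.14, edgeR adjusted p 2.35e-08). PLIN2 coats lipid droplets, and it was at 26.8, 19.2 and 22.4 CPM at 0 h and 91.8, 118 and 183 CPM at 3 h (log2 fold change 2.52, SE 0.38, edgeR adjusted p 0.00023). ANGPTL4 inhibits lipoprotein lipase, and it was at 4.58, 4.26 and 4.79 CPM at 0 h and 19.9, 23.8 and 34.1 CPM at 3 h (log2 fold change 2.51, SE 0.23, edgeR adjusted p 4.34e-06). For PLIN2 and ANGPTL4 the treated libraries spread widely but none reached the range of the controls. MYC, the growth-promoting transcription factor, was at 16.7, 16.4 and 16.5 CPM at 0 h and 72.3, 74.8 and 129.5 CPM at 3 h (log2 fold change 2.48, SE 0.26, edgeR adjusted p 1.18e-05), and the related MYCN went the other way, from 33.0 to 35.2 CPM at 0 h to 5.86 to 7.90 CPM at 3 h (-2.26, SE 0.11).

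The remaining large rises covered signalling, hormone response and amino acid metabolism. DDIT4, an inhibitor of mTORC1, was at 73.7, 64.1 and 68.1 CPM at 0 h and 270.4, 287 and 339 CPM at 3 h (log2 fold change 2.12, SE 0.10, edgeR adjusted p 2.09e-08). SGK1, a kinase of the AKT type, was at 91.1, 94.9 and 102 CPM at 0 h and 376, 391 and 437 CPM at 3 h (log2 fold change 2.07, SE 0.27, edgeR adjusted p 6.72e-05). NR3C1, which encodes the glucocorticoid receptor, was at 7.57, 6.77 and 6.41 CPM at 0 h and 28.6, 25.7 and 31.6 CPM at 3 h (log2 fold change 2.05, SE 0.29, edgeR adjusted p 0.000132). In each of these 3 genes the groups lay far apart and the treated libraries lay close together. The clock-linked nuclear receptor RORA rose by 2.03, the chloride and bicarbonate exchanger SLC26A3 by 2.37, the small G protein RASD1 by 2.25, the Ras association domain gene RASSF10 by 2.10, the N-acetylaspartylglutamate synthetase gene RIMKLA by 1.995 and the argininosuccinate synthase gene ASS1 by 1.995 on the log2 scale.

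Among well expressed protein-coding genes, 6 fell by at least 3 on the log2 scale and 2 rose by as much. As for the rises, the largest falls were chosen with groups that did not overlap. ID1 (GRCh38 chromosome 20, 31605283 to 31606515, plus strand) encodes an inhibitor of basic helix-loop-helix factors that BMP signalling turns on, and it stood at 121, 110.2 and 87.1 CPM at 0 h and 5.08, 6.5 and 4.6 CPM at 3 h. The fall was steep (log2 fold change -4.30, SE 0.19, edgeR adjusted p 1.35e-08). Its relative ID3 was at 221, 205 and 160.2 CPM at 0 h and 15.4, 11.6 and 11.5 CPM at 3 h (log2 fold change -3.93, SE 0.16, edgeR adjusted p 1.35e-08). In both ID genes control replicate 3 was the lowest control, and every treated library was far below it.

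The matricellular genes CCN2 and CCN1, classic targets of YAP and TEAD, fell alongside. CCN2 (GRCh38 chromosome 6, 131948176 to 131951372, minus strand) was at 166, 178 and 178 CPM at 0 h and 9.46, 10.6 and 8.52 CPM at 3 h (log2 fold change -4.19, SE 0.35, edgeR adjusted p 1.73e-06). CCN1 (GRCh38 chromosome 1, 85580761 to 85584589, plus strand) was at 77.5, 82.6 and 81.1 CPM at 0 h and 5.4, 5.52 and 4.16 CPM at 3 h (log2 fold change -3.998, SE 0.35, edgeR adjusted p 2.78e-06). ANKRD1, which encodes a cardiac-type ankyrin repeat protein and is another YAP target, was at 264, 293 and 279 CPM at 0 h and 25.9, 26.9 and 19.6 CPM at 3 h (log2 fold change -3.53, SE 0.26, edgeR adjusted p 6.21e-07). The control ranges of the 3 genes were narrow, and every treated library was far below them.

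TXNIP (GRCh38 chromosome 1, 145992435 to 145996579, minus strand), the arrestin-like brake on glucose uptake, was at 100.5, 95.9 and 93.6 CPM at 0 h and 4.12, 4.91 and 8.14 CPM at 3 h (log2 fold change -4.08, SE 0.39, edgeR adjusted p 4.81e-06). Its relative ARRDC4, controlled by the same glucose-sensing factor MondoA, was at 64.2, 60.5 and 58.7 CPM at 0 h and 14.1, 14.4 and 16.9 CPM at 3 h (log2 fold change -2.02, SE 0.26, edgeR adjusted p 5.92e-05). In both genes the treated libraries lay far below all controls. The others among the 15 largest falls were the kinase NUAK2 (-2.15), ANKRD33B (-1.86), CHD9NB (-1.85), the tumour suppressor gene DLC1 (-1.83), thrombospondin THBS1 (-1.78), the transcription factor CEBPD (-1.70) and L1TD1 (-1.58), which encodes an RNA-binding protein of pluripotent cells.

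**Figure D2:**
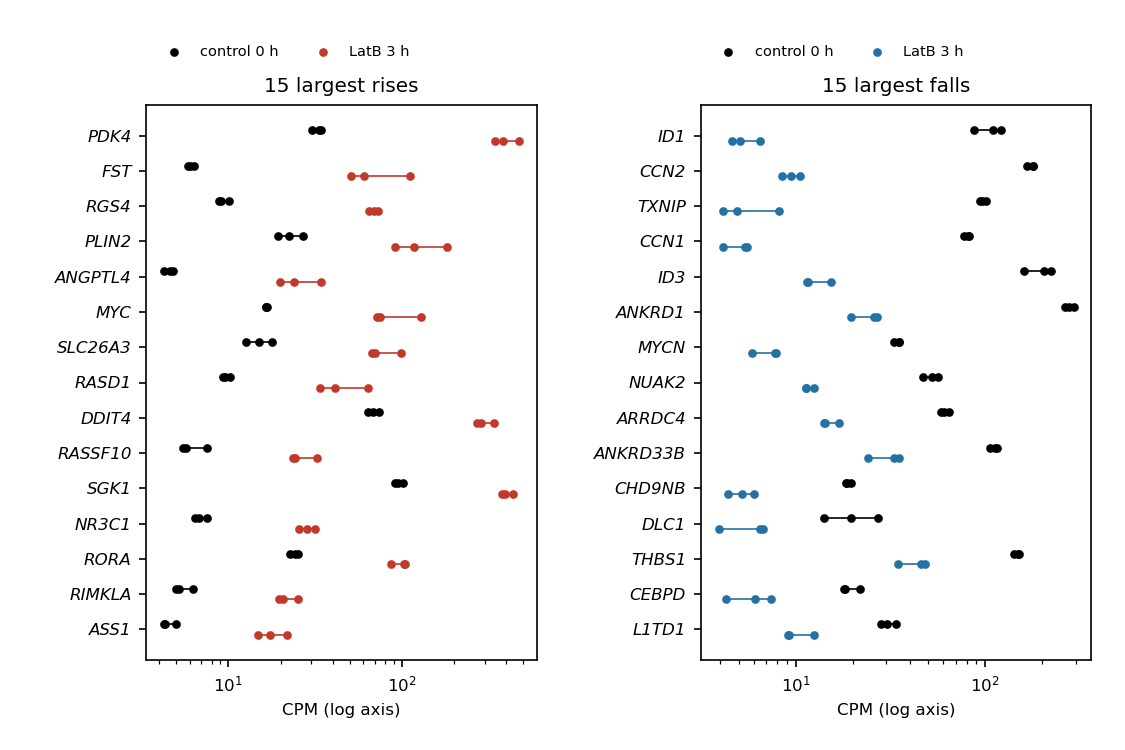
CPM on a log axis for the 15 largest rises (left) and 15 largest falls (right) among called protein-coding genes of mean log2 CPM of at least 3, with 1 point for each of 3 libraries per group and a line over their range. In every row the control 0 h and LatB 3 h points are apart, as the choice of genes required.

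Promoter sequence was at hand from RefSeq for 24 of these 30 genes and for 12169 of the 15399 protein-coding genes tested, as 250 bases before and 50 bases after the start. Motifs were searched on both strands. The hexamer GGAATG, the core bound by TEAD factors, was found in 6 of 11 promoters of the largest falls and in 0 of 13 of the largest rises, against 10.9% of all 12169. Over all called falls of at least 1 on the log2 scale it was in 35 of 198 promoters (17.7%) and over the corresponding rises in 20 of 197 (10.2%). The stretches below show that hexamer in capitals, in lower case otherwise, for 5 of those 6 falling genes, which include the YAP targets CCN2 and ANKRD1. In ID1 the match lies across the start itself. Each stretch runs 5′ to 3′ along the gene and ends at or before the start, on GRCh38.p14.
CCN2, minus strand, chr6:131951422-131951581: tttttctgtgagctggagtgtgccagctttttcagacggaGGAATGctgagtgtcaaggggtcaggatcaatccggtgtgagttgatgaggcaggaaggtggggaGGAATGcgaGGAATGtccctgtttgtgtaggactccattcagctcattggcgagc
ANKRD1, minus strand, chr10:90921170-90921337: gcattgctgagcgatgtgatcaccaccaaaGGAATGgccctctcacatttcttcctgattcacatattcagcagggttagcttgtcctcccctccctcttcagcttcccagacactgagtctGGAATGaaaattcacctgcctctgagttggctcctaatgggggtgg
NUAK2, minus strand, chr1:205321746-205321982: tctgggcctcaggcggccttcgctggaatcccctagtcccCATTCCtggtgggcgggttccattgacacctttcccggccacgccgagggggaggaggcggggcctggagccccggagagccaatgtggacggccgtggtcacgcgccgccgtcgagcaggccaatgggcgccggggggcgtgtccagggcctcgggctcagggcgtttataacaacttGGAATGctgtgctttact
THBS1, plus strand, chr15:39580993-39581078: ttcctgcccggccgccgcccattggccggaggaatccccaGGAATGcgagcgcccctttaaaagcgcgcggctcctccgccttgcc
L1TD1, plus strand, chr1:62194710-62194795: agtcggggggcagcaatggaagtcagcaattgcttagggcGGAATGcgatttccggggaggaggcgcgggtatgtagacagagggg
CCN2 held 3 matches, ANKRD1 and NUAK2 held 2 each, with 1 of the NUAK2 matches on the opposite strand and so printed in its reverse form.

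The letters TATAAA, the core of a TATA box, were in 30 of 197 promoters of the large rises (15.2%) and in 17 of 198 of the large falls (8.59%), against 6.48% of all. Among the largest changes they were in 3 of 13 rises and 3 of 11 falls. In ANGPTL4 and PLIN2 the match, in capitals, began 29 bases before the start, on the gene's strand in ANGPTL4 and in reverse form in PLIN2.
ANGPTL4, plus strand, chr19:8364086-8364154: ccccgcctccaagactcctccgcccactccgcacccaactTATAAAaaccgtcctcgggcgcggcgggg
PLIN2, minus strand, chr9:19127493-19127561: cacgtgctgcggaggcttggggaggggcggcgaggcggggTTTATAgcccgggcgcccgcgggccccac
Of the other letters searched, TGACTCA (AP-1) was in 6.60% of the promoters of large rises, 2.53% of large falls and 3.16% of all. The cAMP response element TGACGTCA was in 2.54%, 1.01% and 3.03%, the FOXO site GTAAACA in 1.52%, 3.03% and 2.33%, the E-box CACGTG in 9.14%, 7.58% and 9.61%, the GGCGCC element in 26.9%, 21.2% and 29.6%, and TGATGNAAN, the composite site of ATF4, in 3.05%, 1.01% and 1.81%. The CArG box of SRF was in 1.02%, 3.54% and 1.12%, and can overlap TATAAA. A match is a description of the letters in this window.

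Actin and the genes that build on it fell together. Of 32 SRF and MRTF targets tested, 18 fell and 2 rose, or 56.2% lower against 14.7% over all genes, with a median log2 change of -0.37 against 0.002 over all genes. Cytoplasmic actin itself fell: ACTB changed by -0.54, SE 0.08, and ACTG1 by -0.49, SE 0.09, on the log2 scale. The actin cross-linkers ACTN1 (-0.39) and FLNA (-0.51), the tropomyosins TPM1 (-0.61) and TPM2 (-0.40), vinculin VCL (-0.53) and SRF itself (-0.35) fell as well. The deepest fall was in the calponin gene CNN1, at 18.5, 21.1 and 20.3 CPM at 0 h and 8.41, 11.5 and 5.18 CPM at 3 h (log2 fold change -1.26, SE 0.33, edgeR adjusted p 0.0103). FILIP1L was at 193, 200.4 and 209.8 CPM at 0 h and 93.5, 101 and 71.8 CPM at 3 h (log2 fold change -1.18, SE 0.17, edgeR adjusted p 0.000161) and the focal adhesion gene TGFB1I1 at 9.45, 10.5 and 10.2 CPM at 0 h and 4.6, 5.49 and 4.29 CPM at 3 h (log2 fold change -1.07, SE 0.17, edgeR adjusted p 0.000402). Treated libraries of all 3 lay under every control. Smooth muscle actin ACTA2 (-1.09, SE 0.36) and TAGLN (-1.06, SE 0.33) were called, but not without LatB 3 h replicate 3 (ACTA2 -0.95, edgeR adjusted p 0.114, and TAGLN -0.84, edgeR adjusted p 0.104), nor without some other single libraries. FHL1, also in the list, rose (0.70, SE 0.14), and the myosin MYH9 was at -0.11 and not called. The CArG box was in 7 of the 29 promoters matched for this list (24.1%), a list of known SRF targets, against 1.12% of all. The number of falls in the list was 12 without LatB 3 h replicate 3. The summed level of the 7 mesenchymal markers moved with these falls, at 136.6 to 205.7 TPM at 3 h against 283.8 to 308.1 TPM at 0 h, although 0 of the 7 were called by edgeR or DESeq2 and 1 had an unadjusted p under 0.05. Its part in the falls was not tested.

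Genes that handle actin monomers and build branched or linear filaments moved little as a list. Of 41, 5 were higher (12.2%) and 6 lower (14.6%), against 16.8% and 14.7% of all genes. The rises were 2 without control 0 h replicate 2 and 3 without LatB 3 h replicate 1 or 2, and the falls were 10 without the 12 h libraries. The formin DIAPH1 rose (0.69, SE 0.06), while profilin PFN2 (-0.54, SE 0.08) and the ARP2/3 subunit ARPC5 (-0.47, SE 0.06) fell. The epithelial keratins KRT8 (-0.41) and KRT18 (-0.47) both fell. Of 22 focal adhesion genes 6 fell and 1 rose. Of 18 integrin subunits 3 rose (16.7%, near the 16.8% of all genes) and 1 fell. The fall, of ITGA2, and the rise of ITGA10 lost their calls under 11 of 21 and 8 of 20 alternatives, and 4 subunits fell without the 12 h libraries. ITGA6, a laminin receptor chain, rose by 0.28, SE 0.04, and ITGA5 (-0.05) and ITGAV (-0.03) were not called. ITGA3 (-0.21, edgeR adjusted p 0.376) was not called either, but was called lower under 2 of 21 alternatives.

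YAP and TEAD targets fell unevenly. Of 21 tested, 9 fell and 2 rose, with a median of -0.30. CCN2, CCN1, ANKRD1 and NUAK2 led. AMOTL2, a YAP-binding angiomotin, was at 280.5, 299 and 290.2 CPM at 0 h and 113, 106 and 108 CPM at 3 h (log2 fold change -1.41, SE 0.06, edgeR adjusted p 1.35e-08), and the Hippo kinase LATS2 at 60.7, 58.2 and 57.6 CPM at 0 h and 32.6, 32 and 26.8 CPM at 3 h (log2 fold change -0.95, SE 0.11, edgeR adjusted p 2.96e-05). For both, the ranges of the groups were narrow and apart. The rises were tissue factor F3 (1.16, SE 0.17) and IGFBP3 (0.90, SE 0.12), and 10 of the 21 were not called. Of 20 Hippo pathway components, 7 fell (35%) and 4 rose (20%), against 14.7% and 16.8% of all genes. The falls included AMOTL2 and LATS2, given above, TEAD4 (-0.73, SE 0.09) and NF2 (-0.33, SE 0.06). The rises included LATS1 (0.35, SE 0.04) and MOB1B (0.50, SE 0.04).

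Genes of the BMP response fell. Of 21 genes in the list of ID genes and BMP signalling, 9 fell (42.9%) and 3 rose (14.3%), with a median of -0.49. Over all genes 14.7% were called lower and 16.8% higher. All 4 ID genes fell, ID4 at 104, 95.8 and 95.6 CPM at 0 h and 34.9, 36.3 and 30.02 CPM at 3 h (log2 fold change -1.54, SE 0.12, edgeR adjusted p 9.24e-07) and ID2 at 144, 134 and 120.4 CPM at 0 h and 57.1, 61.7 and 75.7 CPM at 3 h (log2 fold change -1.03, SE 0.13, edgeR adjusted p 5.63e-05). The inhibitory SMADs, which BMP signals induce as feedback, fell too: SMAD7 was at 15.6, 15.5 and 12.9 CPM at 0 h and 2.97, 3.18 and 3.03 CPM at 3 h (log2 fold change -2.26, SE 0.14, edgeR adjusted p 2.12e-07) and SMAD6 at 35.8, 29.8 and 28.9 CPM at 0 h and 10.6, 11.6 and 14 CPM at 3 h (log2 fold change -1.39, SE 0.11, edgeR adjusted p 8.95e-07). The groups did not overlap in any of the 4, as for 5178 of the 5271 called genes. The ligand BMP2 fell (-1.21, SE 0.19), as did the transducer SMAD1 (-0.49, SE 0.08), while SMAD5 rose (0.31, SE 0.05). ATOH8, listed as a BMP target, rose, from 0.976 to 1.21 CPM at 0 h to 2.17 to 4.23 CPM at 3 h (1.56, SE 0.35), though it was not called on TPM.

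On the activin and TGF-beta side, 9 of 24 genes rose (37.5%) and 3 fell (12.5%), against 16.8% and 14.7% of all genes. FST led. The activin receptor ACVR2A was at 24.4, 22.7 and 26.2 CPM at 0 h and 64.1, 56.1 and 63.8 CPM at 3 h (log2 fold change 1.33, SE 0.13, edgeR adjusted p 5.66e-06), clearly above all controls. TGFBR2 (0.73, SE 0.08), the corepressor SKIL (0.50, SE 0.06) and TGIF1 (0.78, SE 0.12) rose. SMAD7, counted in this list and in the BMP list, fell most (-2.26), and SMAD3 fell (-0.64, SE 0.06). The activin subunit INHBA fell (-0.64, SE 0.11) against control 0 h, and against control 24 h its change was -0.12, edgeR adjusted p 0.475.

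Immediate early and cAMP-responsive genes stood higher at 3 h. Of 22 immediate early genes, 13 rose and 1 fell, with a median of 0.66. Of 12 CREB targets, 9 rose and 0 fell, with a median of 1.08, and these lists share NR4A1, NR4A2 and NR4A3. The orphan nuclear receptor NR4A2 was at 62.5 ± 2.42 CPM at 0 h and 230.3 ± 17.9 CPM at 3 h (SD, n = 3) (log2 fold change 1.88, SE 0.20, edgeR adjusted p 1.3e-05). NR4A1 rose by 1.69, SE 0.23 and NR4A3 by 1.69, SE 0.21. SIK1, the kinase that restrains CREB coactivators, was at 2.51, 5.03 and 3.52 CPM at 0 h and 18.3, 15.9 and 22.2 CPM at 3 h (log2 fold change 2.34, SE 0.33, edgeR adjusted p 0.00014). Every treated library was above the controls in these genes. FOS (1.14, SE 0.21), JUND (0.87, SE 0.11) and ATF3 (1.61, SE 0.10) rose, and EGR2 rose from at most 0.17 CPM at 0 h to between 0.72 and 1.29 CPM (3.35, SE 0.65). CREM (1.09, SE 0.10) and the phosphodiesterase gene PDE4D (1.07, SE 0.10) rose too.

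ERK feedback genes stood higher as well, 7 of 18 rising and 1 falling. The ERK phosphatase DUSP4 was at 43.5, 38.7 and 43.3 CPM at 0 h and 123, 131 and 165 CPM at 3 h (log2 fold change 1.74, SE 0.17, edgeR adjusted p 7.09e-06), and PHLDA1 at 186, 184 and 198 CPM at 0 h and 514, 516 and 611 CPM at 3 h (log2 fold change 1.53, SE 0.12, edgeR adjusted p 9.24e-07). Both were apart from the controls by more than the spread of either group. Among receptor kinases MET (0.88, SE 0.15) and EGFR (0.84, SE 0.10) rose, and the EGFR ligand AREG rose by 1.34, SE 0.16. In the circadian clock list 7 of 17 rose and 0 fell: RORA, BHLHE40 (2.21, SE 0.30), PER2 (1.15, SE 0.16), PER1 (1.13, SE 0.10), NFIL3 (1.09, SE 0.13), NR1D2 (0.61, SE 0.08) and CRY1 (0.46, SE 0.08). Without scaling 1 member of that list fell.

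Inflammatory targets of NF-kB went down. Of 17 tested, 8 fell and 2 rose, with a median of -0.36. The chemokine CCL2 was at 21.7, 21.2 and 19.6 CPM at 0 h and 3.77, 4.76 and 4.09 CPM at 3 h (log2 fold change -2.31, SE 0.17, edgeR adjusted p 8.1e-07) and CXCL1 at 8.17, 9.18 and 9.12 CPM at 0 h and 2.59, 2.53 and 1.53 CPM at 3 h (log2 fold change -1.99, SE 0.23, edgeR adjusted p 2.47e-05). The treated libraries of both were far under the controls. The feedback inhibitor TNFAIP3 fell (-0.82, SE 0.15), whereas NFKB2 rose (0.66, SE 0.11). Of 13 WNT ligands 4 fell and 0 rose, with WNT2B at -1.30, SE 0.29. Of 14 WNT targets 5 rose (35.7%, against 16.8% of all genes) and 2 fell (14.3%, near the 14.7% of all genes). The largest changes were rises, SP5 by 2.12, LGR5 by 1.90 and DKK1 by 1.27, while LEF1 fell (-0.96, SE 0.19). SP5 and DKK1 were not called against control 24 h, and SP5 and LGR5 were not called on log2(TPM + 1). The median of this list changed sign under the offset for transcript length, on TPM and with a mean of at least 50 counts.

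Many genes of the integrated stress response rose. Of 28 genes of the integrated stress response 14 rose and 3 fell, with ATF4, its central factor, at 176, 192 and 178 CPM at 0 h and 389.8, 393 and 374 CPM at 3 h (log2 fold change 1.08, SE 0.05, edgeR adjusted p 2.35e-08). CHAC1, an ATF4 target that degrades glutathione, was at 2.31, 1.51 and 2.12 CPM at 0 h and 12.6, 11.3 and 8.01 CPM at 3 h (log2 fold change 2.43, SE 0.24, edgeR adjusted p 6.8e-06), and the arginine transporter SLC7A1 at 51.5, 43.8 and 48.1 CPM at 0 h and 112, 123 and 139 CPM at 3 h (log2 fold change 1.38, SE 0.10, edgeR adjusted p 4.56e-07). All 3 had every treated library above every control. ATF5 (1.15, SE 0.06), DDIT3 (1.001, SE 0.11) and the folate enzyme MTHFD2 (0.85, SE 0.14) rose, while TRIB3 (-0.57, SE 0.14) and the alanyl-tRNA synthetase AARS1 (-0.41, SE 0.05) fell. The letters TGATGNAAN were in 6 of 24 promoters of this list (25.0%), a list that includes known ATF4 targets. Of 20 genes of the unfolded protein response 11 rose and 0 fell, led by HERPUD1 (1.19, SE 0.09) and XBP1 (0.79, SE 0.17).

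Among 26 lysosome and autophagy genes 14 rose and 1 fell. The autophagy receptor SQSTM1 was at 102, 104 and 96.5 CPM at 0 h and 317, 322 and 319.6 CPM at 3 h (log2 fold change 1.67, SE 0.07, edgeR adjusted p 1.35e-08), FLCN at 26.9, 29.6 and 28.4 CPM at 0 h and 65, 57.3 and 56.5 CPM at 3 h (log2 fold change 1.07, SE 0.07, edgeR adjusted p 4.44e-07) and the Rag GTPase RRAGC at 22.7, 21.1 and 22.7 CPM at 0 h and 39.96, 45.3 and 39.8 CPM at 3 h (log2 fold change 0.91, SE 0.06, edgeR adjusted p 4.56e-07). In each the 3 treated libraries were close together and above the controls. MAP1LC3B (0.55, SE 0.07), FNIP1 (0.59, SE 0.06) and ULK1 (0.48, SE 0.07) rose with them. Among FOXO targets, 7 of 19 rose (36.8%, against 16.8% of all genes) and 3 fell (15.8%, near the 14.7% of all genes). PDK4, IRS2 (1.08, SE 0.11), the insulin receptor INSR (0.41, SE 0.06), KLHL24 (0.62, SE 0.05) and IGFBP1 (3.26, SE 0.41) were among the rises, and TXNIP and PIK3IP1 (-1.37, SE 0.30) among the falls.

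Genes of ribosome biogenesis moved one way. Of 30 members 19 rose and 0 fell, or 63.3% higher against 16.8% over all genes, with a median of 0.28. The 4 largest changes were LYAR 0.85, SE 0.15, UTP4 0.63, SE 0.06, the nucleolar GTPase GNL3 0.62, SE 0.10 and the helicase DDX21 0.61, SE 0.08. Cytosolic ribosomal protein genes were 17 of 78 higher (21.8%) and 0 lower. Without scaling, however, 2 were higher and 1 lower, and on log2(TPM + 1) 1 was higher and 1 lower. The count of higher members was 2 without control 0 h replicate 2, control 0 h replicate 3 or LatB 3 h replicate 2, 3 without LatB 3 h replicate 3, 5 without LatB 3 h replicate 1, 25 without control 0 h replicate 1 and 47 without the 12 h libraries.

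In metabolism, 5 of 14 genes of the pyruvate dehydrogenase complex and its regulators rose and 1 fell, and without scaling 4 rose and 4 fell. Beside PDK4, DLAT, a subunit of the complex itself, rose (1.19, SE 0.17). The 5 became 2 without control 0 h replicate 2 and 3 without control 0 h replicate 3 or LatB 3 h replicate 2. In fatty acid handling 5 of 22 rose (22.7%) and 3 fell (13.6%), against 16.8% and 14.7% of all genes. The list median was -0.03, and without scaling 4 rose and 6 fell. The rises were 3 without control 0 h replicate 1 or 2 or LatB 3 h replicate 1 or 2. PLIN2 and ANGPTL4 rose, while the mitochondrial transferase CPT2 fell (-0.67, SE 0.07). Of 30 genes of cholesterol and fatty acid synthesis 10 rose and 0 fell, IDI1 by 0.89, SE 0.11 and INSIG1 by 0.73, SE 0.12, and without scaling 2 fell. Of 22 glycolysis genes 11 rose and 0 fell, PFKFB3 by 0.84, SE 0.15. That count was 6 without scaling, 3 without control 0 h replicate 2, 4 without LatB 3 h replicate 3 and 7 without control 0 h replicate 3. Of 76 nuclear respiratory chain genes 10 fell (13.2%, near the 14.7% of all genes) and 0 rose, with NDUFB3 at -0.32, SE 0.07. The list median was -0.001. The falls were 4 without control 0 h replicate 1, 5 without LatB 3 h replicate 3 and 23 without scaling. Against control 24 h, 3 members were higher and 3 lower. Of 13 mitochondrially encoded ones 0 were called by edgeR or DESeq2 and 0 had an unadjusted p under 0.05.

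Most endocrine factors were not called at 3 h. NEUROG3, the trigger of endocrine fate, was at 0.438, 0.603 and 1.36 CPM at 0 h and 0.799, 1.48 and 0.988 CPM at 3 h and was not called (log2 fold change 0.46, SE 0.49, edgeR adjusted p 0.52). The groups overlapped. NEUROD1 (0.60) and PAX4 (0.66) were not called either. INSM1 was at 0.996, 0.871 and 1.7 CPM at 0 h and 2.97, 2.6 and 2.15 CPM at 3 h (log2 fold change 1.14, SE 0.42, edgeR adjusted p 0.0563). Its groups did not overlap, as for 48.2% of all genes tested. The gene was called by DESeq2 (1.12, adjusted p 0.00608), with the compared groups alone in edgeR (adjusted p 0.0144), with a replicate block (edgeR adjusted p 0.0352), with no filter and without control 0 h replicate 3 (edgeR adjusted p 0.0452 in both). It was not called in the other 16 alternatives, whose adjusted p ran up to 0.611, and was at -0.30, edgeR adjusted p 0.611 against control 24 h. NKX2-2 was at 0.239, 0.402 and 0.467 CPM at 0 h and 1.5, 1.8 and 1.36 CPM at 3 h and was called against control 0 h (log2 fold change 2.06, SE 0.44, edgeR adjusted p 0.00307), but not against control 24 h (0.29, edgeR adjusted p 0.636). RFX6, a factor of early endocrine and gut endoderm cells, was at 8.57, 8.14 and 7.72 CPM at 0 h and 29.9, 29.5 and 33.2 CPM at 3 h (log2 fold change 1.92, SE 0.19, edgeR adjusted p 6.39e-06), and it was also higher than in control 24 h (1.37, edgeR adjusted p 0.000261). Of 14 endocrine factors 3 rose (21.4%, against 16.8% of all genes) and 0 fell. The list median was 0.65 against control 0 h and -0.09 against control 24 h. Somatostatin SST, at 38.8 to 48.0 TPM at 0 h and 109.7 to 197.3 TPM at 3 h, was called (1.77, SE 0.47), but not without LatB 3 h replicate 3 (1.43, edgeR adjusted p 0.0528) nor against control 24 h (1.31, edgeR adjusted p 0.0691).

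Among progenitor factors, 7 of 19 tested rose (36.8%, against 16.8% of all genes) and 3 fell (15.8%, near the 14.7% of all genes). NKX6-1 rose (0.60, SE 0.10), as did NR5A2 (1.10, SE 0.12), FOXA3 (1.10, SE 0.10), PROX1 (0.77, SE 0.09) and GATA4 (0.76, SE 0.10). SOX9 (-0.43, SE 0.08), linked to the bipotent and ductal state, fell. PDX1 was at 0.16 and not called. Among markers of other cells, LIN28A, which pluripotent cells also express, fell from 170.9 to 184.3 TPM at 0 h to 82.9 to 107.6 TPM at 3 h (-0.78, SE 0.08), with POU5F1 and NANOG at most 1.85 TPM and 1 of 6 pluripotent markers called. NES fell (-0.84, SE 0.15).

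Mitotic genes were lower at 3 h than at 0 h: 9 of 28 fell, among them HMMR (-0.88, SE 0.18) and KIF20A (-0.78, SE 0.17), and 1 rose, AURKA by 1.13, SE 0.10. The falls were 3 without control 0 h replicate 1, 4 without control 0 h replicate 3 or LatB 3 h replicate 1 and 5 without LatB 3 h replicate 2. Against control 24 h the same list had 15 higher and 0 lower, and its median went from -0.23 to 0.50, so that its direction depended on the control. DNA replication genes had 4 higher and 4 lower of 33 against control 0 h (12.1% each, against 16.8% and 14.7% of all genes). Against control 24 h they had 25 higher and 1 lower. The 4 higher against control 0 h became 2 without control 0 h replicate 2 or LatB 3 h replicate 3. AURKA was higher against either control (1.73, edgeR adjusted p 8.83e-07 against control 24 h). Of 24 p53 targets 3 fell (12.5%, near the 14.7% of all genes) and 0 rose, and the falls were 1 without control 0 h replicate 1 or 2 or LatB 3 h replicate 3 and 7 without the 12 h libraries.

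Among other lists, tubulins, hypoxia genes and heat shock genes had mostly higher calls. Over all genes 16.8% were called higher and 14.7% lower. Near these shares were junction genes (19.4% and 19.4%), Notch genes (14.3% and 19.0%) and RGS proteins (20% and 13.3%). The higher shares of TRiC and prefoldin (15.4%) and of granule genes (18.8%) were also near that of all genes. There were 7 higher and 7 lower of 36 cell junction and polarity genes, 6 higher and 0 lower of 12 tubulins, 2 higher and 0 lower of 13 genes of the TRiC and prefoldin chaperones, 1 higher and 0 lower of 21 basement membrane genes and 1 higher and 1 lower of 19 stromal matrix genes. There were 6 higher and 3 lower of 14 Kruppel-like factors, 6 higher and 2 lower of 20 receptor tyrosine kinases and ligands, 3 higher and 4 lower of 21 Notch pathway genes and 3 higher and 2 lower of 15 RGS proteins. In nutrient and stress control there were 3 higher and 3 lower of 8 genes of the TXNIP and MondoA list, 4 higher and 0 lower of 14 mTORC1 brakes, 8 higher and 2 lower of 20 heat shock genes and 8 higher and 1 lower of 15 hypoxia genes, of which 4 were higher without control 0 h replicate 2. There were 1 higher and 3 lower of 12 CDK inhibitors and D cyclins and 3 higher and 0 lower of 16 granule and secretion genes. Fewer were higher without some libraries. Junction genes gave 4 without control 0 h replicate 1 or LatB 3 h replicate 1 or 3 and 3 without LatB 3 h replicate 2, and tubulins 3 without LatB 3 h replicate 2. The mTORC1 brakes gave 2 without control 0 h replicate 1 or any LatB 3 h replicate, and heat shock genes 5 without LatB 3 h replicate 2 or 3. The 3 higher members of the TXNIP and MondoA list were 1 without each control 0 h replicate in turn or LatB 3 h replicate 2 or 3, and without the 12 h libraries Notch genes had 6 higher and CDK inhibitors and D cyclins 5 lower. Where a list had 0 calls in a direction by edgeR, at most 4 of its members had an unadjusted p under 0.05 in that direction and at most 2 were called by DESeq2.

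**Figure D3:**
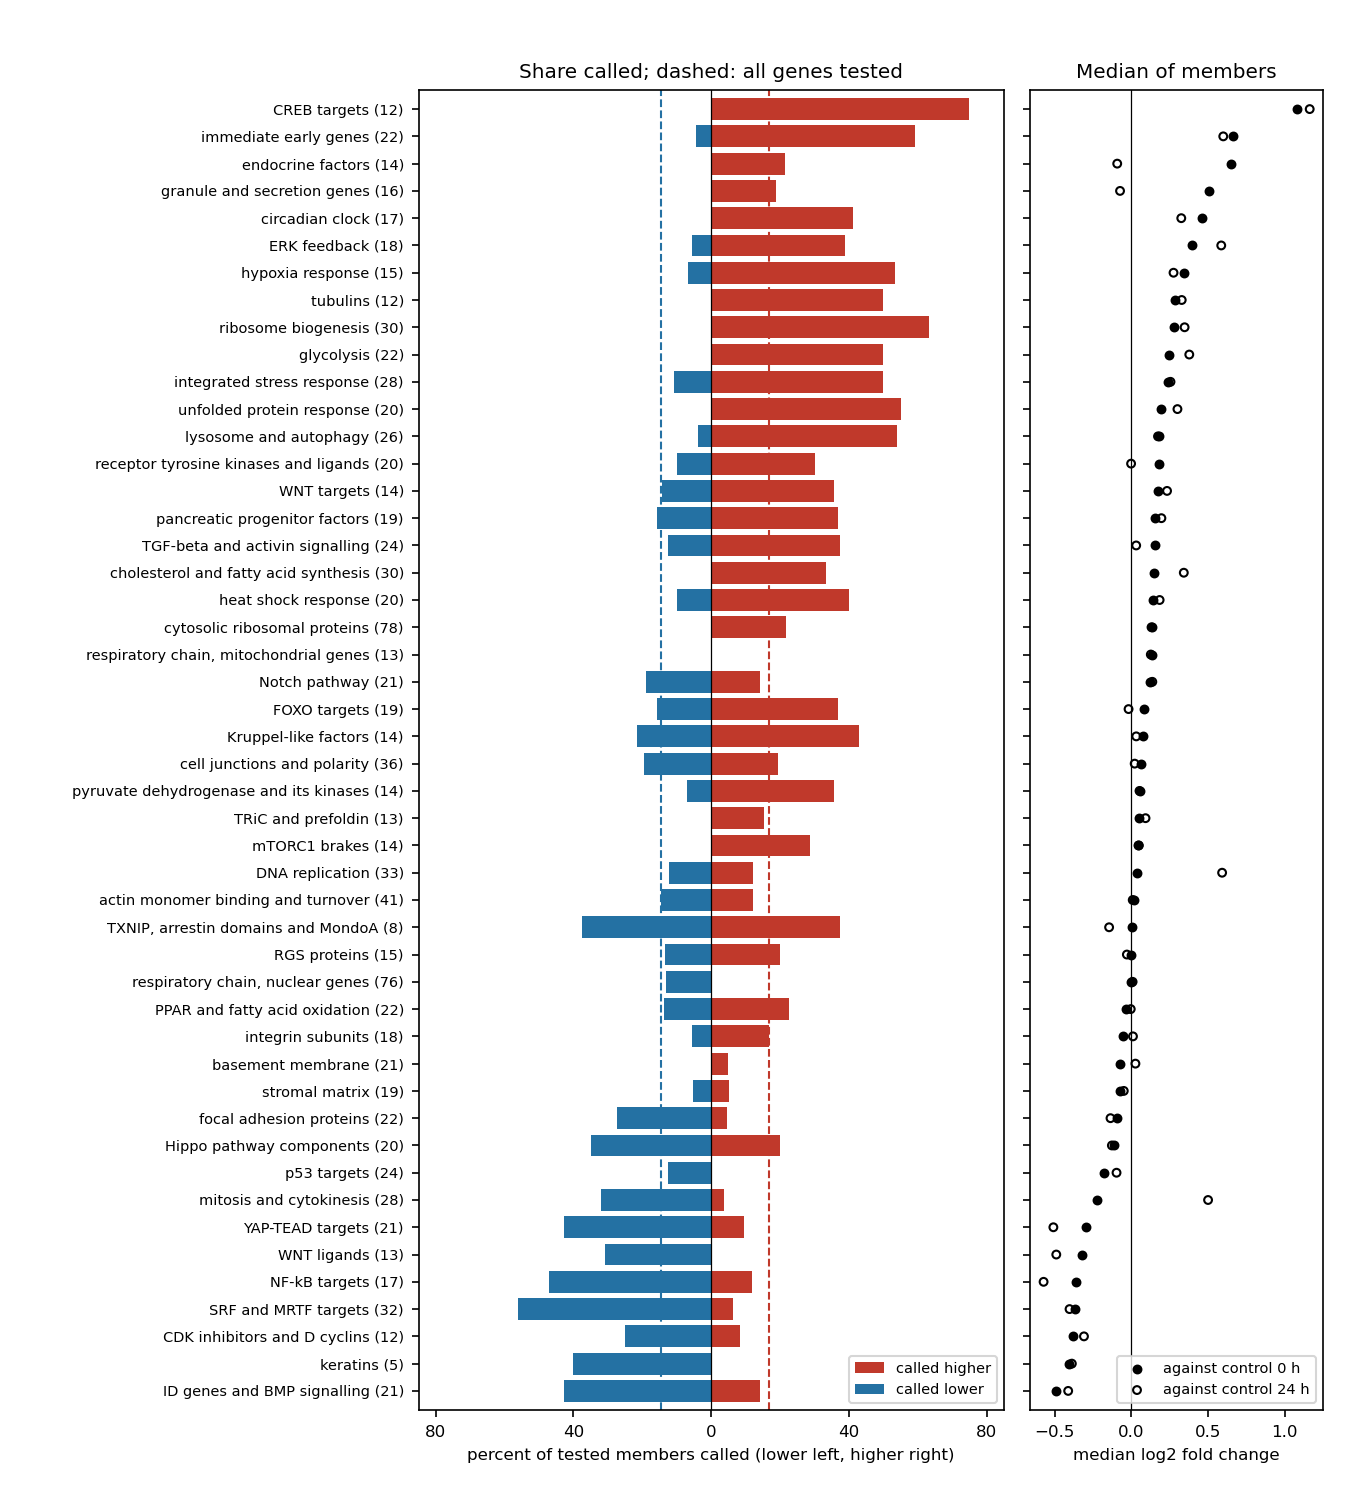
Left, the percent of tested members called higher (red, to the right) and lower (blue, to the left) at LatB 3 h against control 0 h for 48 gene lists, number tested in brackets, with dashed lines at the shares of all genes, 16.8% and 14.7%. Right, the median log2 fold change of each list against control 0 h (filled) and against control 24 h (open), which lie on different sides of 0 for 10 lists, 7 of them with a median under 0.2 in size against both controls and the others mitosis and cytokinesis, endocrine factors and granule genes.

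The genes of the large changes had fewer exons, and lower expression, than all genes tested. Over protein-coding genes, the median was 6 exons for the 273 large rises and 5 for the 272 large falls, against 9 over the 15399 tested. Genes of 1 or 2 exons made up 19.4% of the large rises and 22.4% of the large falls, against 7.59% over all. Median expression was 2.14 log2 CPM for the large rises and 1.68 for the large falls, against 4.44 over all. With calls of any size the median was 9 exons for genes called higher and 8 for genes called lower. The part of expression in the exon numbers was not tested. Among the 2357 protein-coding genes called lower, 141 (5.98%) had ZNF symbols, the family of zinc finger repressors, against 69 of 2760 called higher (2.50%) and 3.14% of all tested.

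A day later the effect of many large changes was smaller. The effect at 24 h, LatB against control 24 h, shares no library with the effect at 3 h. At 24 h, 40.8% of all genes were called against control 24 h. Of the 302 large rises at 3 h, 105 were called higher at 24 h, 17 lower and 180 not called. Of the 312 large falls, 138 were called lower, 13 higher and 161 not called. The difference between the effects was called for 280 of the 614 (edgeR, 27.9% over all genes), 156 of the rises and 124 of the falls. Among the rises, 151 were smaller or turned at 24 h and 5 larger, and among the falls 112 were smaller or turned and 12 larger. Large changes at 3 h were chosen by size, which by itself draws a second measurement towards 0, and the size of this was not tested. The median log2 change of the rises was 1.38 at 3 h, 1.31 at 6 h, 0.73 at 12 h and 0.42 at 24 h, and that of the falls -1.31, -1.15, -0.56 and -0.63. The values at 3, 6 and 12 h share the control 0 h libraries, and the 12 h group has 2 libraries.

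**Figure D4:**
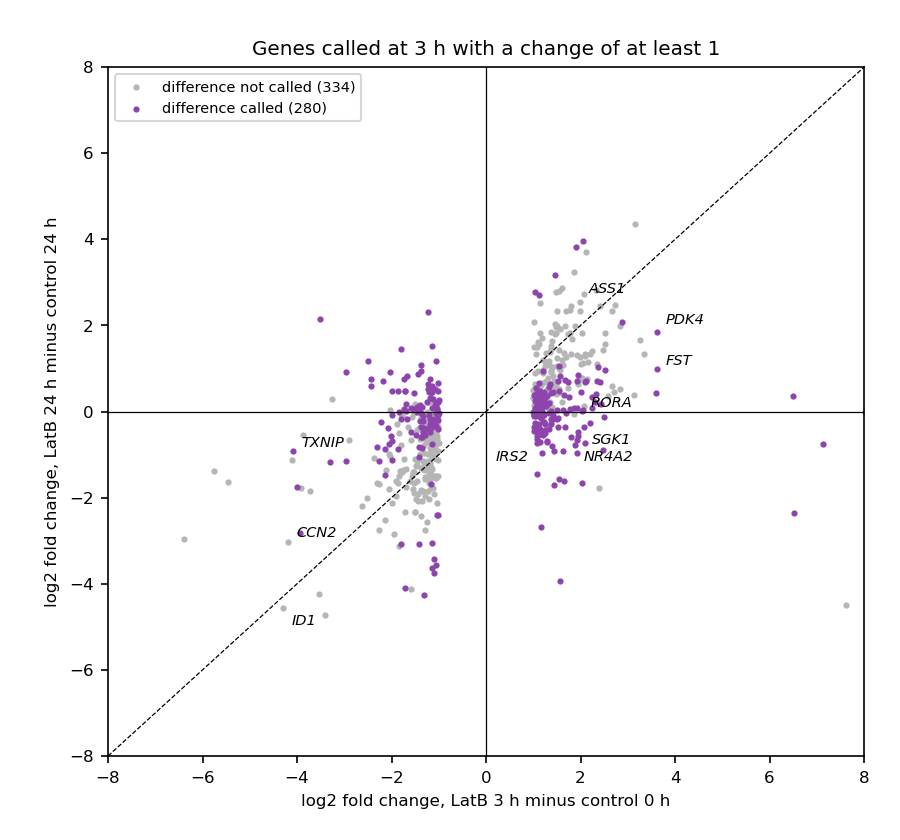
Log2 fold change at LatB 3 h against control 0 h (x) and at LatB 24 h against control 24 h (y) for the 614 genes called at 3 h with a change of at least 1, coloured by whether the difference was called (280) or not, with a dashed line of equal effects. Many purple points lie near y = 0, such as RORA and SGK1, while ID1 and ASS1 lie near the dashed line, and 7 genes are outside the axes.

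Several leading rises were not called at 24 h. RORA was at 2.03 at 3 h and 0.02 at 24 h (difference -2.01, SE 0.22, edgeR adjusted p 4.61e-05), and NR3C1 at 2.05 and 0.05 (difference -1.999, SE 0.43, edgeR adjusted p 0.00391). SGK1 went from 2.07 to -0.36 (difference -2.43, SE 0.39, edgeR adjusted p 0.000585). These 3 genes were at 2.03, 1.45 and 1.74 at 6 h and 0.44, 0.54 and 0.36 at 12 h, in the same order. TXNIP, at -4.08 at 3 h, was at -0.93 at 24 h and not called there (difference 3.15, SE 0.53, edgeR adjusted p 0.000802). PDK4 (1.84) and FST (0.98) remained higher at 24 h, by less than at 3 h. ID1 was at -4.30 and -4.57, with no called difference. CCN2 was at -4.19 at 3 h, -5.70 at 6 h and -5.73 at 12 h, and at -3.02 at 24 h against control 24 h. The CCN2 difference between 3 h and 24 h was not called (1.175, SE 0.47, edgeR adjusted p 0.0819). ASS1 (1.995 at 3 h, 2.55 at 24 h) and RIMKLA (1.995, 2.33) had no called difference.

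Some genes were called in opposite directions. NR4A2 was at 1.88 at 3 h and -0.77 at 24 h (difference -2.65, SE 0.29, edgeR adjusted p 4.77e-05). IRS2, the insulin receptor substrate, was at 1.08 and -0.72 (difference -1.81, SE 0.16, edgeR adjusted p 1.04e-05), and the progenitor factor NR5A2 at 1.10 and -0.51 (difference -1.61, SE 0.17, edgeR adjusted p 4.16e-05). The kinase SIK2 (1.24, -0.49), the amino acid transporter SLC38A2 (1.01, -0.35), the glycosyltransferase B3GNT7 (1.81, -0.59) and the clock gene PER2 (1.15, -0.70) turned from higher to lower, and the WNT receptor FZD2 from -1.21 to 0.45. SIK2, SLC38A2, B3GNT7 and FZD2 were chosen after their values were seen. Of the 14 endocrine factors, 5 had an effect at 24 h called larger than at 3 h by edgeR. NEUROG3 was at 0.46 at 3 h and 4.34 at 24 h (difference 3.88, SE 0.65, edgeR adjusted p 0.000775), INSM1 at 1.14 and 4.31 (difference 3.17, SE 0.58, edgeR adjusted p 0.00143) and NKX2-2 at 2.06 and 3.96 (difference 1.90, SE 0.62, edgeR adjusted p 0.0365). PAX4 was at 0.66 and 3.38 (difference 2.73, SE 0.68, edgeR adjusted p 0.00908) and NEUROD1 at 0.60 and 2.77 (difference 2.17, SE 0.68, edgeR adjusted p 0.0303). RFX6, at 1.92 and 1.32, had no called difference (-0.60, SE 0.27, edgeR adjusted p 0.12).

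**Figure D5:**
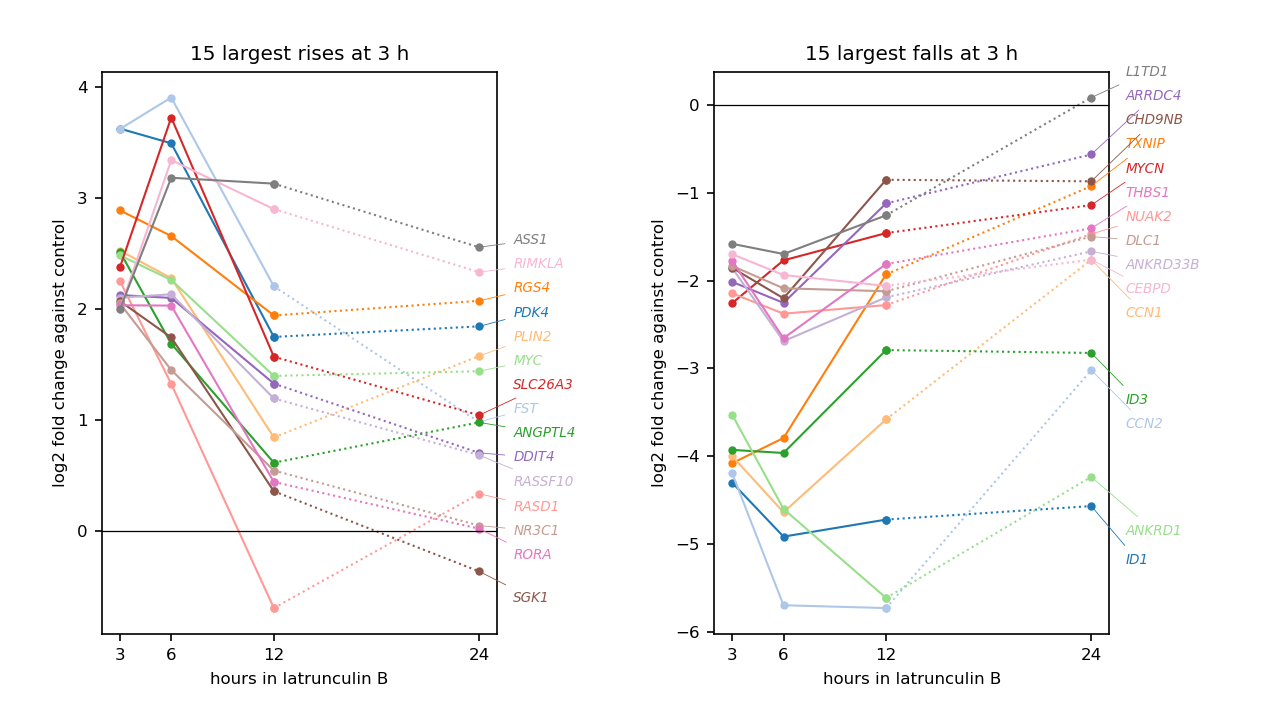
Log2 fold change of the 15 largest rises (left) and 15 largest falls (right) against hours in latrunculin B, at 3, 6 and 12 h against control 0 h (solid) and at 24 h against control 24 h (joined by dots, since the control changes). ASS1 and RIMKLA rise further after 3 h and SGK1 ends under 0, and among the falls L1TD1 returns to about 0 while ID1 stays below -4.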

How the data were processed

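Poly(A) RNA of SA121 NGN3-GFP pancreatic progenitors was sequenced in 16 libraries, of which 6 (LatB 3 h, n = 3, and control 0 h, n = 3) were compared. For each library the authors deposited estimated counts and TPM per transcript, in the format of Salmon (version 1.3.0 and hg38 per the labels). The study's methods describe another route, STAR gene counts, for its sequencing, so upstream settings beyond the labels are not given in the sources used here. The authors' table of fold changes and p-values, and its 16 columns of per-sample values, were not used.

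Transcripts were joined without version to GENCODE release 44 (165533 of 177456 matched, and 2.92% to 3.17% of reads per library did not). Estimated counts were summed over 35810 genes and rounded. Genes with copies on alternate sequences are uncertain. Use of strand in counting is not given. Counts were fitted in edgeR 4.0.16 (R 4.3.3) with all 6 groups, TMM scaling and filterByExpr by group. The quasi-likelihood test was two-sided, with Benjamini-Hochberg adjustment over 16705 genes, and calls needed an adjusted p below 0.05. SE is the log2 change divided by the square root of F. CPM uses TMM-scaled totals. Depth was 23609727 to 33515398 reads per library.

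Named genes were the 15 largest rises and falls among called protein-coding genes of mean log2 CPM of at least 3 without group overlap, up to 4 called members of each of 49 lists and further members where a list is described, genes the study follows, and cell type markers. The genes and lists were chosen with earlier results of these data known. Lists are described by counts and medians, with no test of a list. Some members and 1 list are not reported here. Alternatives were DESeq2 1.42.0, size factors by RLE, unscaled libraries, unfiltered genes, a filter at a mean of 50 counts, a transcript length offset, a replicate block, a fit of the compared groups alone, an adjusted p under 0.01, limma-trend (limma 3.58.1) on log2(TPM + 1) and log2(TPM + 0.1), other controls, leaving out libraries and, added after seeing the data, leaving out the 12 h libraries. The scripts were tested on simulated counts.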

Additional observations from a re-analysis of the deposited data

Results flagged for a closer look

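Results were listed here when the effect at 24 h (LatB against control 24 h) and the effect at 3 h (LatB against control 0 h) differed by the edgeR test of their difference, at an adjusted p under 0.05. Of the 614 genes called at 3 h with a log2 change of at least 1, 280 did. Among the 15 largest rises the difference (24 h minus 3 h, log2) was -2.64 for FST, -2.43 for SGK1, -2.01 for RORA, -2.00 for NR3C1, -1.91 for RASD1, -1.78 for PDK4, -1.53 for ANGPTL4, -1.42 for DDIT4, -1.42 for RASSF10, -1.33 for SLC26A3 and -0.81 for RGS4. Among the 15 largest falls it was 3.15 for TXNIP, 2.24 for CCN1, 1.67 for L1TD1, 1.45 for ARRDC4, 1.12 for MYCN, 1.10 for ID3, 0.98 for CHD9NB and 0.68 for NUAK2. In every one of these 19 genes the change was smaller, or past 0, at 24 h. They were chosen by their size at 3 h, a value that is part of the difference. The choice by itself favours that direction, and the size of this was not tested. The groups held 2 or 3 libraries, too few for a search for single deviating libraries.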

How the results depend on the processing

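Counts of called genes, of called genes with a log2 change of at least 1, and of those whose effect at 24 h differed were 5271, 614 and 280. They moved by over 1.5 times in these cases: 3400 called genes and 181 differing effects at an adjusted p under 0.01, 380 large changes with a mean of at least 50 counts, 257 large changes and 131 differing effects on log2(TPM + 1), and 3143 called genes, 244 large changes and 120 differing effects on log2(TPM + 1) with no filter. The threshold of 0.01 and the filter lower the counts by construction, and a pseudocount of 1 shrinks low genes. Leaving out each library gave 4145 to 4720, 478 to 626 and 221 to 281. Without the 12 h libraries they were 6173, 647 and 321. With control 24 h as the reference, 5412 genes were called and 717 had a large change.

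The replicate numbers did not pair the libraries: deviations of same-numbered libraries correlated at -0.06, -3.9e-05 and 0.01, and with the replicate block the counts were 4853, 583 and 264. Of 256 named genes called, 175 were called under every alternative run and 81 lost the call under at least 1. The sign turned for RPL28 on TPM (-0.0038 in 3 settings), and for GINS1 (0.11) and TPX2 (0.18) against control 24 h, none of them called there, and the cause was not tested. The part of depth in calls of genes with few reads was not tested.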
